A study of Mus musculus with 6 samples.

Results

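The genes described here are 31 mouse genes that sterol regulatory element-binding proteins (SREBPs) are known to drive or that control SREBPs: 18 enzymes of the sterol pathway from acetyl-CoA to cholesterol, 7 genes of fatty acid synthesis and 6 regulators. They were chosen by name, by matching the NCBI Gene identifier of each line of the deposited tables to a symbol, and all 31 had a line among the 17567 genes listed. Immature dendritic cells were derived from marrow of male C57BL/6 mice aged 6 weeks. They were cultured to day 6 in medium that held 20 ng/mL GM-CSF, 10 ng/mL IL-4 and 10% serum, and were purified on CD11c magnetic beads. The H2O2 group then received hydrogen peroxide at 100 µM for 24 h to mimic reactive oxygen species, and the control group did not, both groups sharing mouse strain, cytokines and purification. The labels listed 3 control and 3 H2O2 samples, but the table of H2O2 replicate 3 was identical to that of replicate 1, so both were counted as 1 library and 5 distinct libraries were analysed. The labels did not say whether the libraries came from separate mice or cultures, so a p-value measures the spread between these libraries, which may be technical, and 1 dose at 1 time was studied.

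SREBPs are made as membrane proteins of the endoplasmic reticulum, where the sterol-sensing escort protein Scap carries them to the Golgi for cleavage when sterols are scarce and Insig proteins hold the complex back when sterols are plentiful. The freed part enters the nucleus and binds sterol regulatory elements in promoters, usually beside sites of NF-Y and Sp1. The product of Srebf2 acts mainly on cholesterol synthesis and that of Srebf1 mainly on fatty acid synthesis. These lipids build cell membranes, and in macrophages and dendritic cells sterol synthesis is known to be tied to inflammatory signalling.

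The libraries fell into 2 sets that the treatment labels did not give. Set A held control replicate 1 and H2O2 replicate 1, and set B held control replicates 2 and 3 and H2O2 replicate 2. The titles of the 5 distinct libraries, with and without a replicate suffix, divided in the same way, and the summed level of 4 Y-linked genes was 106.2 and 96.4 CPM (library-size-scaled counts) in set A against 0.12 to 0.427 in set B, although all mice were labelled male. What else differed between the sets was not given, so each change below is the change within sets, from a model with a set term. Each library held 16232604 to 16672491 counts, and 12209 genes, all 31 members among them, passed the filter on low counts. Itgax, which encodes the CD11c used for purification, ran at 1473 to 2176 CPM in all 5 libraries and did not pass the test (log2 change 0.06 ± 0.0759 SE). Calls of markers are at an adjusted p of at most 0.05 by edgeR, at which 4.61% of all tested genes were lower and 3.93% higher. Of 8 dendritic cell markers 7 had a negative change and 5 were called lower. Their summed levels were 5983, 6964 and 6418 CPM in the controls and 4913 and 5820 CPM with H2O2. All 10 proliferation markers were called lower, from sums of 1155, 337.4 and 621.5 CPM to 373.2 and 183.2 CPM. Of 6 basophil and mast cell markers all 6 had a negative change and 5 were called lower. Their sums went from 17.7, 47.1 and 73.2 CPM to 4.55 and 14.8 CPM. Macrophage markers summed to 489.1 to 512.2 CPM in the controls and to 611.6 and 628.6 CPM with H2O2, with Cd68 higher and C1qb and C1qc lower. Neutrophil markers summed to 93.8, 279.9 and 509.9 CPM in the controls and to 102.8 and 518.3 CPM with H2O2, following the sets. Among them Mpo fell, from 4.94, 4.05 and 10.24 CPM to 0.296 and 0.583 CPM. Markers of B cells, T cells and erythroid cells summed to at most 2.50 CPM. In bulk RNA fewer cells of a type and less RNA per cell cannot be told apart.

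The promoters of some members, called and not called, are shown because sterol elements and their partner sites can lie there. RefSeq's promoter table (GRCm38.p6) held 25 of the 31 members, with 250 bases before each start searched on both strands. Each stretch below runs 5′ to 3′ on the gene's strand and ends before the first annotated transcript, and the capitals mark matches on either strand to TCACNNCA, a loosened sterol element, to CCAAT, the NF-Y box, or to CACGTG, an E-box. The stretches are chr13:119690101-119690350 on the plus strand for Hmgcs1, chr3:89454291-89454540 on the plus strand for Pmvk, chr5:4104747-4104947 on the minus strand for Cyp51, chr2:155517793-155517947 on the plus strand for Acss2, chr15:82147019-82147180 on the plus strand for Srebf2 and chr5:28071162-28071362 on the plus strand for Insig1. Acss2, Pmvk, Cyp51, Srebf2 and Insig1 stand early in the order of p-values, and Hmgcs1 was added after its match was seen.
Hmgcs1: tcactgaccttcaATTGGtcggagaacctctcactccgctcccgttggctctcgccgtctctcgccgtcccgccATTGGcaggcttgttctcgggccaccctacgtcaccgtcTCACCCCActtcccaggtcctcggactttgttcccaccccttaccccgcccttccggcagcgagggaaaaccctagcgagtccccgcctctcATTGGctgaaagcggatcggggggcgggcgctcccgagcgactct
Pmvk: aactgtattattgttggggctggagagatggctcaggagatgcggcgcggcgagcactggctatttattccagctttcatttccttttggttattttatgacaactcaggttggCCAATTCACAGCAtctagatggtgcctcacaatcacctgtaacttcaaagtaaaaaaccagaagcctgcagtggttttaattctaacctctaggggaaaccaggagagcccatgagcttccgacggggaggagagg
Cyp51: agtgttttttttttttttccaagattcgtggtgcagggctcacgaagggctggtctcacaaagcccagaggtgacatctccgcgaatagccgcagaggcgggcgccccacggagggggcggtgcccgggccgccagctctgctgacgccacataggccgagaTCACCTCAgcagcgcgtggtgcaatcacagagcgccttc
Acss2: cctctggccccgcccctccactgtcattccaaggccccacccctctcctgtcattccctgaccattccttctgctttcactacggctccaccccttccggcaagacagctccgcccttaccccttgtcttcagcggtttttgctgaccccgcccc
Srebf2: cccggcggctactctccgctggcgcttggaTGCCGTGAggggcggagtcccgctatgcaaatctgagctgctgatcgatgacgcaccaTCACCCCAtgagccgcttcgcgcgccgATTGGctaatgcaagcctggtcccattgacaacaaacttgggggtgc
Insig1: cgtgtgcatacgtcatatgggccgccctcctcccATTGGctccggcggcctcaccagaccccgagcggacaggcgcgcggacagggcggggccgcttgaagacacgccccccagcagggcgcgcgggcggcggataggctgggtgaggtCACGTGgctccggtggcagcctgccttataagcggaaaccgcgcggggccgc

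The element in Hmgcs1, the gene of the cytosolic HMG-CoA synthase that makes the precursor of mevalonate, began at base -137 from the RefSeq start and was the single member match to the stricter form TCACNCCAC, which 1.2% of the 9868 tested genes with a promoter entry held. The loosened form, which contains the stricter one and was chosen after the matches were seen, was found in 9 of the 25 members against 11.62% of tested genes. Of those 9, 7 were among the 15 sterol enzymes with an entry, 2 among the 5 regulators and 0 among the 5 fatty acid genes. Among the sterol enzymes, the Msmo1 and Dhcr7 matches lay downstream of the principal annotated starts at 64733792 and 143823167. Matches to the other motifs were not sorted in this way. The NF-Y box was present in 14 of 15 sterol enzymes, 4 of 5 regulators and 2 of 5 fatty acid genes, against 41.18% of tested genes, and the GC box GGGCGG, the site of Sp1, in 14, 5 and 2 of them against 62.39%. The E-box was present in 3 sterol enzymes, 2 regulators and 0 fatty acid genes, against 9.93%. Genes with several starts counted as holding a motif if any start did. Of the fatty acid genes, Scd1 and Scd2 had no entry. The only Acaca window precedes a start at 84195438, downstream of the principal annotated start at 84173122, so the region before the principal start was not searched. The fatty acid counts are limited by this. In these stretches Pmvk, Cyp51 and Srebf2 showed the loosened element, Insig1 an E-box and an NF-Y box, and Acss2 none of the marked motifs, its CCAAT match lying between the printed stretch and the start. The Pmvk stretch precedes the upstream of 2 RefSeq starts, which lies before the principal annotated start at 89459118; the other start leaves 10 bases free of annotated transcripts and is not shown. A match describes letters in the window and is no evidence of binding.

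Most members did not pass the test for a change with H2O2. Within sets, Pmvk and Cyp51 of the sterol pathway fell and Acss2 of fatty acid synthesis rose, and none of the 6 regulators passed (edgeR's quasi-likelihood test, Benjamini-Hochberg adjusted p at most 0.05 over all 12209 genes). Over all tested genes 3.93% were called higher and 4.61% lower, 8.54% in all, and the 3 members called make 9.68% of the 31, a share near the background. Of the sterol enzymes 15 of 18 had a negative log2 change, with a median of -0.195, while 48.4% of all tested genes were negative and their median was 0.009. Without H2O2 replicate 1 the count was 13 of 18 and the median -0.123, and without control replicate 1 they were 13 and -0.13. The 7 fatty acid genes had a median of -0.03 with 4 negative, and the 6 regulators a median of 0.045 with 2 negative. The negative median of the sterol enzymes held in each set, at -0.21 (A) and -0.125 (B), against 0.006 and -0.003 for all tested genes. The proliferation markers also fell in both sets, and their part in the direction of the sterol enzymes was not tested.

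**Figure D1:**
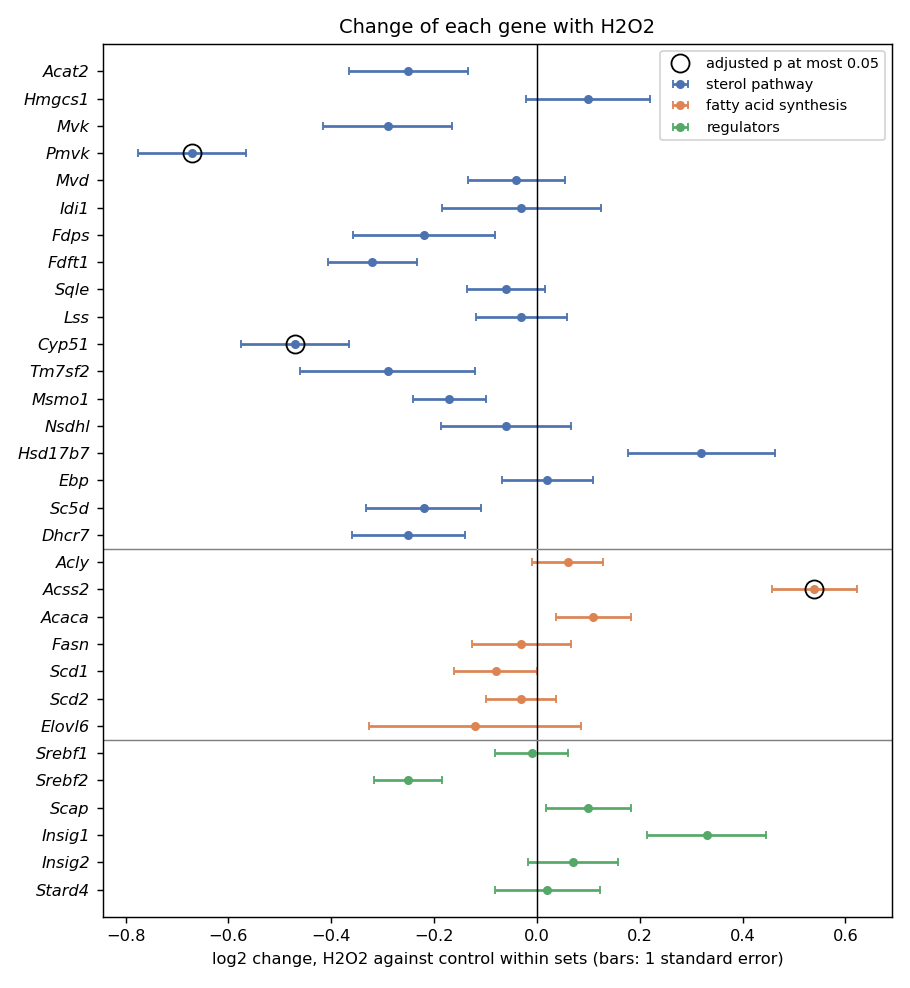
Log2 change with H2O2 within sets (x axis) for each of the 31 genes, with bars of 1 standard error, coloured by role and with a black ring where the adjusted p is at most 0.05. The rings sit on Pmvk and Cyp51, left of 0, and on Acss2, right of 0; 15 of the 18 sterol enzymes lie left of 0.

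Pmvk, the phosphomevalonate kinase that adds the second phosphate to mevalonate, lies on chromosome 3 from 89454541 to 89469014 (GRCm38). Its level was 30.85, 18.24 and 17.0 CPM in control replicates 1, 2 and 3 and 19.3 and 11.1 CPM in H2O2 replicates 1 and 2. Each H2O2 library was below every control of its own set, but the groups overlapped because the H2O2 library of set A was above both controls of set B. The means were 22.0 ± 7.66 (SD, n = 3) and 15.2 ± 5.79 CPM (SD, n = 2). Within sets Pmvk fell by 0.67 ± 0.105 (SE) on the log2 scale, or 1.59-fold, with an adjusted p of 0.0225 by edgeR's quasi-likelihood test. The change was of one size in both sets, -0.67 in A and -0.66 in B, and no other annotated gene shared its exons. The call was lost without the set term (adjusted p = 0.784 by edgeR), where no gene was called. The call was also lost without H2O2 replicate 2. There the change rests on set A, 1 H2O2 library against 1 control, and the log2 change was -0.678.

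The other mevalonate genes did not pass. Of all 7 mevalonate genes, Pmvk among them, 6 had negative changes, and the median of the 7 was -0.222. Mvk, the mevalonate kinase that acts just before Pmvk, stood at 13.8, 10.75 and 9.81 CPM in the controls and 10.9 and 8.61 CPM with H2O2, below the controls of its own set in both sets (log2 change -0.29 ± 0.125, adjusted p = 0.185 by edgeR). Acat2, the thiolase that joins acetyl-CoA units at the entry of the pathway, stood at 13.7, 24.5 and 27.7 CPM against 10.6 and 23.1 CPM (log2 change -0.25 ± 0.116). Fdps, which makes farnesyl diphosphate, had a log2 change of -0.22 ± 0.138, and 26.7% of its exon bases are shared with a gene model on its own strand, so its counts are uncertain. Mvd, the decarboxylase that follows Pmvk, stayed between 22.8 and 27.1 CPM in all 5 libraries.

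Hmgcs1 and Idi1, the isomerase of the isoprenoid building blocks, moved in opposite directions in the 2 sets. Hmgcs1 stood at 93.2 CPM in the control and 80.55 CPM with H2O2 in A, and at 73.7 and 71.1 CPM in the controls and 90.8 CPM with H2O2 in B. Idi1 stood at 272.5 and 201.8 CPM in A, and at 120.8 and 138.8 CPM in the controls and 155.8 CPM with H2O2 in B. The H2O2 library was thus lower than its control in set A and higher than both its controls in set B, for both genes. Nsdhl (-0.29 and 0.12 in sets A and B), Ebp (-0.11 and 0.12) and Stard4 (-0.18 and 0.16) showed the same directions. The log2 changes were -0.21 and 0.33 for Hmgcs1 and -0.43 and 0.26 for Idi1. The difference of the change between sets did not pass for either (edgeR's interaction test, adjusted p = 0.0998 for Hmgcs1 and 0.101 for Idi1, with 1 residual degree of freedom), and in that test 0.0164% of all genes were called while 1674 of 12209 had an unadjusted p under 0.05. Without control replicate 1 or H2O2 replicate 1 the fit rests on set B, 1 H2O2 library against 2 controls, where the spread comes from the controls alone and the lone H2O2 library is assumed to vary like them. In those fits Hmgcs1 was called higher (adjusted p = 0.0323 and 0.0316 by edgeR), as were 1072 and 1050 genes over all, against 480 with all libraries.

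**Figure D2:**
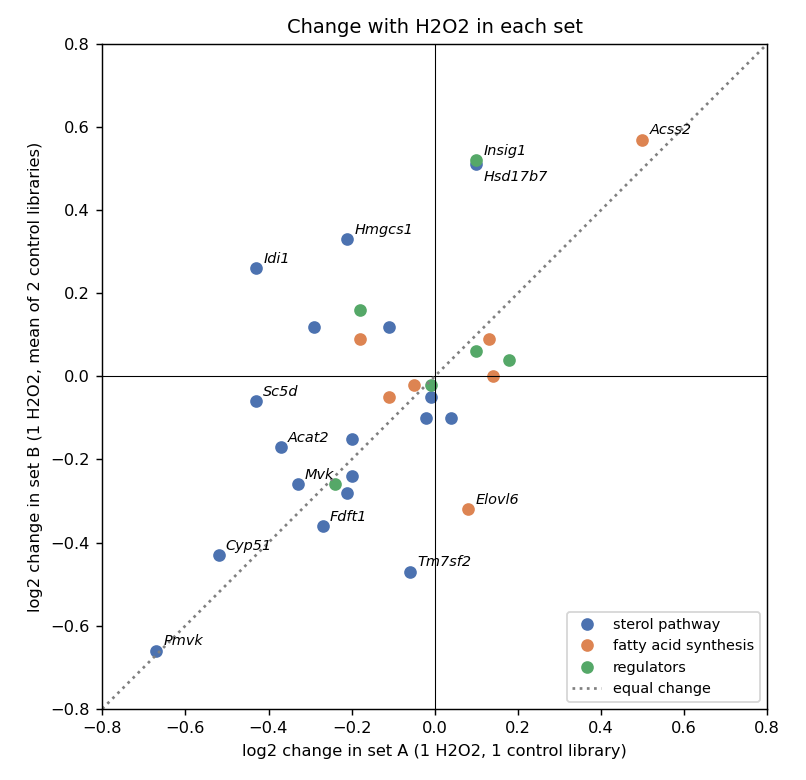
Log2 change with H2O2 in set A (x axis, 1 H2O2 and 1 control library) against that in set B (y axis, 1 H2O2 library and the mean of 2 controls) for each gene, coloured by role, with the line of equal change dotted. Pmvk, Cyp51 and Acss2 lie near the line, and Idi1 and Hmgcs1 lie in the upper left corner, lower in set A and higher in set B.

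None of the 3 genes that turn farnesyl diphosphate into lanosterol passed, although all 3 had negative changes and lay below the controls of their own set. Fdft1, the squalene synthase at the branch into sterols, stood at 45.2, 39.9 and 44.7 CPM in the controls and 37.6 and 32.95 CPM with H2O2. Both H2O2 libraries were below every control, and the log2 change was -0.32 ± 0.0872 with an adjusted p of 0.0695 (edgeR). On the opposite strand Ctsb, a lysosomal protease gene, shares 18.3% of the exon bases of Fdft1 and rose by 0.49 ± 0.079 (adjusted p = 0.024 by edgeR). The strand setting of the counting was not given, so reads of the overlap cannot be told apart. Sqle, the squalene epoxidase, had a log2 change of -0.06 ± 0.0757. Lss, the cyclase that forms lanosterol, also lay below every control but only between 24.5 and 25.5 CPM in all 5 libraries. Over all tested genes 10.7% had both H2O2 libraries below every control, against 2 of the 31 members (Fdft1 and Lss), and 13% had both above every control, against 1 (Scap).

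Cyp51, the demethylase that takes lanosterol into the last stretch of the pathway, lies on the minus strand of chromosome 5 from 4080674 to 4104697. Its level was 60.8, 32.6 and 39.8 CPM in the controls and 42.4 and 26.8 CPM with H2O2. As for Pmvk, each H2O2 library was below every control of its own set while the groups overlapped across sets. The means were 44.4 ± 14.6 (SD, n = 3) and 34.6 ± 11.05 CPM (SD, n = 2). Cyp51 fell by 0.47 ± 0.105 on the log2 scale, or 1.39-fold, with an adjusted p of 0.0421 by edgeR, close to the threshold. The changes in sets A and B were -0.52 and -0.43. Its opposite-strand neighbour Akap9 shares 3.8% of its exon bases and had a log2 change of 0.00 (adjusted p = 0.973 by edgeR). The call was lost without control replicate 3 (adjusted p = 0.108 by edgeR) and with the replicate number as a block (0.0891 by edgeR). The call was also lost without control replicate 1, H2O2 replicate 1 or H2O2 replicate 2. The first 2 of these fits rest on set B, with log2 changes of -0.441 and -0.433. The last rests on set A, 1 H2O2 library against 1 control, with -0.522.

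The 7 genes that act after Cyp51 did not pass. Msmo1, the oxidase of the methyl groups, stood at 55.1, 48.4 and 47.6 CPM against 48.1 and 43.3 CPM (log2 change -0.17 ± 0.0716, adjusted p = 0.182 by edgeR). Dhcr7, the reductase of a last step, stood at 17.25, 14.3 and 14.0 CPM against 14.9 and 11.65 CPM (log2 change -0.25 ± 0.110). Both genes lay below the controls of their own set in each set. Tm7sf2, a sterol reductase, had a log2 change of -0.29 ± 0.170 at 4.91 to 7.31 CPM, and shares 12.1% of its exon bases with Vps51 on its own strand. Sc5d, a sterol desaturase, had -0.22 ± 0.112, mostly from set A (-0.43, against -0.06 in set B). Nsdhl, a dehydrogenase of the decarboxylation, and Ebp, a sterol isomerase, had -0.06 ± 0.126 and 0.02 ± 0.0883. Hsd17b7, the ketosteroid reductase, was the single sterol enzyme above the controls of its own set in both sets, at 12.1, 7.49 and 7.86 CPM against 13.0 and 10.9 CPM (log2 change 0.32 ± 0.143, adjusted p = 0.195 by edgeR).

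Across the sterol pathway, 11 of 18 enzymes lay below the controls of their own set in both sets and 1 above. Over all tested genes the H2O2 library lay below its own controls in both sets for 28% and above for 28.5%. Of the fatty acid genes 0 of 7 lay below and 2 above, and of the regulators 2 of 6 below and 3 above. These counts describe the direction within sets and do not bear on the size of single changes.

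**Figure D3:**
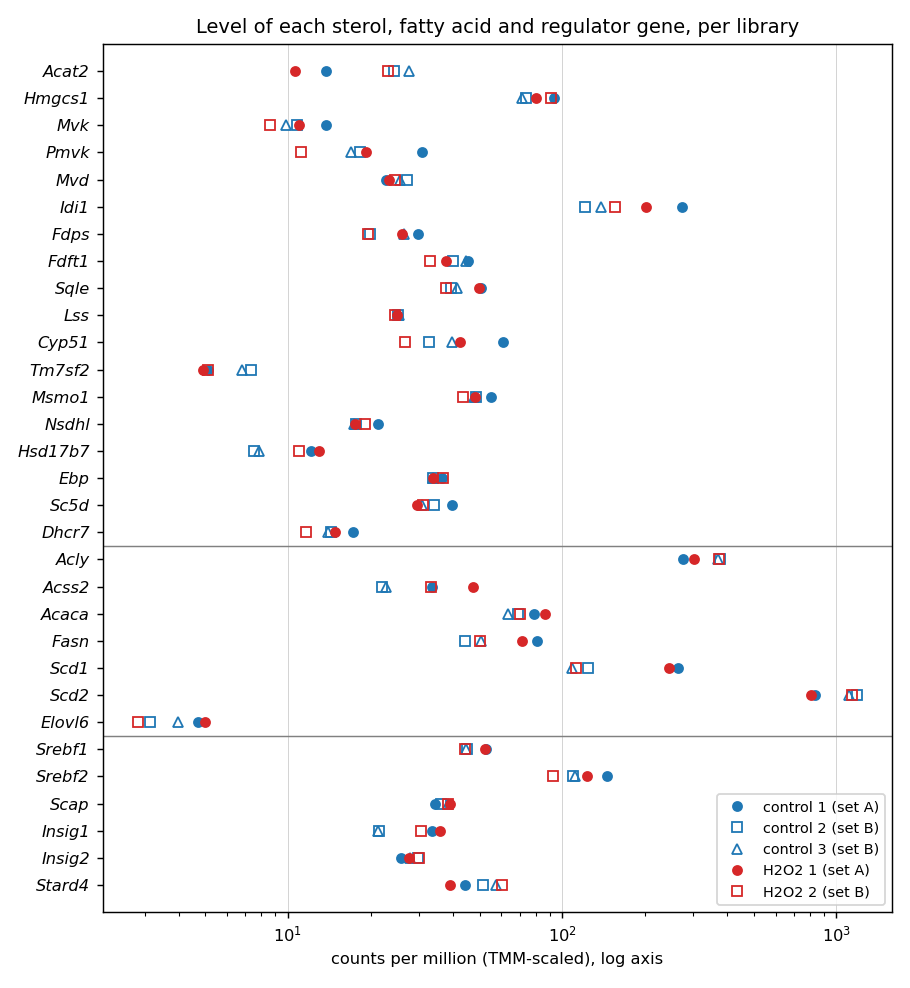
Level of each gene in each of the 5 libraries, in TMM-scaled CPM on a log axis, with controls in blue, H2O2 in red, set A as filled circles and set B as open marks. Scd1, Idi1 and Acat2 separate by set rather than by colour, and Scd2 is the highest of the genes at 807.7 to 1184 CPM.

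Acss2, the synthetase that makes acetyl-CoA from acetate, was the single member called higher with H2O2. It lies on chromosome 2 from 155518043 to 155562743. Its level was 33.5, 22.0 and 22.85 CPM in the controls and 47.2 and 33.3 CPM with H2O2. The H2O2 library of each set was above the controls of that set, and H2O2 replicate 2 was slightly below control replicate 1, so the groups overlapped. The means were 26.1 ± 6.39 (SD, n = 3) and 40.3 ± 9.81 CPM (SD, n = 2). Acss2 rose by 0.54 ± 0.0818 on the log2 scale, or 1.45-fold, with an adjusted p of 0.0213 by edgeR, with values of 0.50 and 0.57 in sets A and B. The opposite-strand gene Gss, the glutathione synthetase, shares 3.9% of the exon bases of Acss2 and rose by 0.67 ± 0.105, from 34.4, 37.7 and 36.1 CPM to 64.0 and 52.05 CPM (adjusted p = 0.0223 by edgeR), and without the strand setting reads of the overlap cannot be told apart. The antisense gene Acss2os shares another 3.3% and Ggt7 1.9%. The call was lost without control replicate 3 (adjusted p = 0.0541 by edgeR) and without the set term (0.706 by edgeR). The call was also lost without H2O2 replicate 2. There the change rests on set A, 1 H2O2 library against 1 control, and the log2 change was 0.493.

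The other genes of acetyl-CoA supply and chain synthesis did not pass. Acly, which makes acetyl-CoA from citrate, stood at 275.9, 376.6 and 371.1 CPM in the controls and 303.6 and 373.7 CPM with H2O2 (log2 change 0.06 ± 0.0692). Acaca, the carboxylase that makes malonyl-CoA, stood at 79.0, 68.85 and 63.3 CPM against 86.6 and 70.25 CPM, above the controls of its own set in both sets (log2 change 0.11 ± 0.0736, adjusted p = 0.386 by edgeR). Fasn, the synthase that builds palmitate, stood at 80.6, 44.3 and 50.4 CPM against 71.3 and 50.2 CPM (log2 change -0.03 ± 0.0959). All 4 genes of this step also differed between the sets, as described further on.

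The desaturases Scd1 and Scd2, which put the double bond into stearate and palmitate, had log2 changes of -0.08 ± 0.0804 and -0.03 ± 0.0680 with H2O2. Scd1 stood at 264.4, 123.8 and 108.7 CPM in the controls and 245.7 and 111.9 CPM with H2O2. Scd2 stood at 833.7, 1184 and 1114 CPM in the controls and 807.7 and 1135 CPM with H2O2. Scd1 was thus higher and Scd2 lower in both libraries of set A than in those of set B. Per transcript length, the ratio of Scd1 to Scd2 levels was 0.358 and 0.343 in set A and 0.110 to 0.118 in set B. The 2 genes are near relatives and could share reads. Elovl6, which lengthens palmitate, had the lowest control mean of the members, 3.94 CPM, with 2.85 to 4.96 CPM over the 5 libraries, and had a log2 change of -0.12 ± 0.206.

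Srebf2 lay below the controls of its own set in both sets. Its level was 145.5, 109.4 and 111.3 CPM in the controls and 123.3 and 92.4 CPM with H2O2, a log2 change of -0.25 ± 0.0662 with an adjusted p of 0.0662 (edgeR), just outside the threshold, and -0.24 and -0.26 in sets A and B. Srebf1 stood at 52.6, 45.1 and 44.5 CPM against 52.4 and 44.15 CPM, a log2 change of -0.01 ± 0.0710. The per-length ratio of Srebf1 to Srebf2 levels was 0.427, 0.4865 and 0.472 in the controls and 0.501 and 0.564 with H2O2. The groups did not overlap in this ratio, by a narrow gap between 0.4865 and 0.501. The ratio of Insig1 to Insig2 (1.301, 0.717 and 0.758 against 1.299 and 1.015) and that of Scd1 to Scd2 did overlap. How often the ratio of any 2 genes separates the groups was not counted. With 3 libraries against 2 no exact permutation test can go below a one-sided p of 0.1. These are mRNA levels, while the activity of the Srebf1 and Srebf2 proteins depends on their cleavage.

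Insig1, itself a known SREBP target that retains Scap, stood at 33.6, 21.4 and 21.2 CPM in the controls and 35.9 and 30.6 CPM with H2O2. It lay above the controls of its own set in each set but did not pass (log2 change 0.33 ± 0.115, adjusted p = 0.120 by edgeR), with changes of 0.10 and 0.52 in sets A and B. In the same fits on set B, with 1 H2O2 library and the spread of 2 controls, it was called higher (adjusted p = 0.0246 without control replicate 1 and 0.0287 without H2O2 replicate 1, by edgeR), among the 1072 and 1050 genes so called. The difference of the change between sets did not pass (edgeR's interaction test, adjusted p = 0.307). Scap stood at 34.3, 36.1 and 38.3 CPM against 39.0 and 38.4 CPM, both H2O2 libraries above every control by a small margin (log2 change 0.10 ± 0.0827, adjusted p = 0.454 by edgeR). Insig2, the second retention protein, and Stard4, a soluble sterol carrier, had log2 changes of 0.07 ± 0.0876 and 0.02 ± 0.102.

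More of these genes were called between the sets than between the treatment groups. Between set A and set B 13 of the 31 members were higher in A and 4 lower, 54.8% in all, while 19.1% of all tested genes were higher in A and 16.9% lower, 36.0% in all (edgeR's quasi-likelihood test with treatment in the model). Scd1 had the largest difference among the members, 1.16 ± 0.0788 on the log2 scale or 2.24-fold higher in set A (adjusted p = 0.000132 by edgeR). Pmvk (0.80), Idi1 (0.78), Cyp51 (0.71) and Fasn (0.66) were also higher in set A. Acat2 was 2.01-fold lower in set A (log2 difference -1.01 ± 0.119, adjusted p = 0.00106 by edgeR). Acat3, which is no member and lies outside the naming rule, was also lower in set A (log2 difference -3.15). Whether Acat2 and Acat3 share reads was not tested, so the Acat2 levels are uncertain. Scd2 (-0.47), Stard4 (-0.45) and Acly (-0.38) were lower in set A too. Lss and Ebp had differences of 0.00 ± 0.0886 and 0.01 ± 0.0881. By role, the members called between sets were 7 of 18 sterol enzymes, 6 of 7 fatty acid genes and 4 of 6 regulators.

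**Figure D4:**
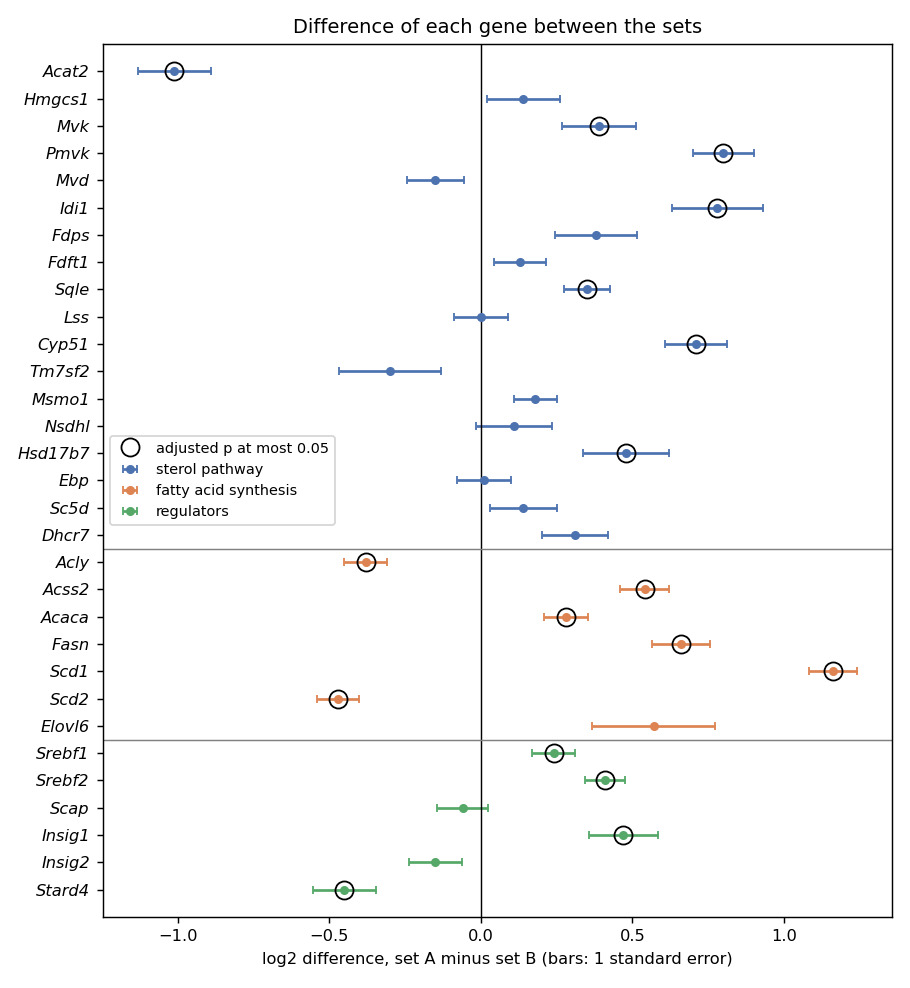
Log2 difference between set A and set B (x axis, set A minus set B) for each gene with treatment in the model, bars of 1 standard error, colours by role and black rings where the adjusted p is at most 0.05. Rings lie on 17 of the 31 genes, from Acat2 at -1.01 to Scd1 at 1.16.

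When the set was left out of the model, no member and no gene was called. That comparison of the 3 control with the 2 H2O2 libraries called 0% of the 12209 genes by edgeR (853 had an unadjusted p under 0.05, and the smallest adjusted p was 0.38976). Of the members 0 had an unadjusted p under 0.05, the smallest being 0.0544 for Acss2. The change with H2O2 in Pmvk, Cyp51 and Acss2 is therefore one that the within-set comparison shows and the plain comparison of groups does not.

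The levels of the members per kilobase of transcript spanned a wide range. Scd2 was highest at a control mean of 191.4 CPM per kb and led in all 5 libraries. Acly at 77.7 and Idi1 at 58.6 CPM per kb came next, but their order turned in control replicate 1 (62.8 for Acly and 90.0 CPM per kb for Idi1) and their control ranges overlapped. Scd1, at 34.3 CPM per kb, was below Idi1 in each of the 5 libraries, although the ranges of both genes overlapped across the sets. Among the regulators Srebf2 led at 24.0 CPM per kb, ahead of Srebf1 at 11.0. Hsd17b7 at 1.99 and Elovl6 at 0.661 CPM per kb were lowest.

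Genes around the pathway were taken from 5 further lists. Their counts are to be read against the 8.54% of all tested genes that were called (3.93% higher, 4.61% lower). The lists were chosen with earlier results of these data known, so their shares are descriptive and test nothing about the lists. Of 12 genes of SREBP cleavage, sterol sensing and partner factors, 1 fell and 0 rose, 8.33% (median log2 change -0.096). The gene was Erlin1, a membrane protein that binds cholesterol and restrains SREBPs, at 77.5, 24.8 and 27.3 CPM against 46.3 and 20.3 CPM (log2 change -0.54 ± 0.111, adjusted p = 0.0343 by edgeR). Sp1, the most abundant of that list, had a log2 change of -0.13 ± 0.0747. Of 15 genes of the isoprenoid branches, which take the pathway's intermediates to dolichol, ubiquinone and protein prenylation, 1 rose and 0 fell, 6.67% (median 0.032). That gene was Nus1, a subunit of the enzyme that makes the dolichol chain, at 123.7, 168.5 and 153.9 CPM against 162.5 and 210.4 CPM (log2 change 0.39 ± 0.0717, adjusted p = 0.0276 by edgeR).

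Of 26 genes of fatty acid elongation, activation and glycerolipid synthesis, 2 rose and 1 fell, 11.5% against the 8.54% over all genes (median -0.082). Me1, the malic enzyme that supplies NADPH, rose by 0.87 ± 0.180 and Lpin2, a phosphatidate phosphatase, by 0.43 ± 0.101 (adjusted p = 0.0350 and 0.0485 by edgeR). Acsl3, which activates fatty acids, fell by 0.66 ± 0.113 (adjusted p = 0.0251 by edgeR). Acsl4, the most abundant of that list, had a log2 change of 0.34 ± 0.108 and did not pass.

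Of 12 genes of cholesterol esterification, lysosomal release and transport, 4 rose and 0 fell (median 0.048). That is a share of 33.3%, against 3.93% called higher over all tested genes. As this list too was chosen with earlier results known, the share is no test of the list. The 4 calls were not followed under the alternative fits. Lipa, the lysosomal acid lipase that frees cholesterol from its esters, rose by 0.55 ± 0.0659 and Lrp1, a lipoprotein receptor, by 0.62 ± 0.0871. Soat1, which esterifies cholesterol for storage, rose by 0.42 ± 0.0705 (adjusted p = 0.0149, 0.0184 and 0.0244 for the 3 genes by edgeR). The fourth, Npc1, which exports cholesterol from lysosomes and lies outside the naming rule, rose by 0.32 ± 0.0755 (adjusted p = 0.0471 by edgeR), while its partner Npc2, the most abundant of the list, had a log2 change of 0.05 ± 0.0822. Of 6 LXR receptors and targets, which respond to oxysterols, 0 were called (median 0.167), and the most abundant, Abcg1, had a log2 change of 0.12 ± 0.0741.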

How the data were processed

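The authors' deposited tables give estimated counts per NCBI Gene for each sample, not whole numbers in 8.38% to 9.03% of values, which were rounded. Per the submitters' processing notes, the build was GRCm38.p6 and the tools included HISAT and Bowtie2. The sources used here give no versions, no role for each tool and no strand setting of the counting. Of 17567 identifiers 17520 matched a symbol, and 47 stayed in the fit without one.

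Counts were filtered with edgeR's filterByExpr (minimum count 10, minimum total 15) and scaled by TMM. They were fitted with edgeR 4.0.16 (R 4.3.3) by quasi-likelihood with terms for set and treatment, over 3 control and 2 H2O2 libraries (2 residual degrees of freedom). The test adds 4.88 prior degrees of freedom, so the spread used for each gene is drawn in large part from the other genes. P-values were Benjamini-Hochberg adjusted over all tested genes and called at 0.05, and a standard error is the log2 change divided by the root of the F statistic. CPM are TMM-scaled; levels per kb use the longest principal transcript of the GENCODE annotation. The procedure was run on counts simulated from its own fitted model with the same sets. That run cannot show whether the model suits the real libraries. Alternatives were no set term, a replicate block, DESeq2 1.42.0, its size factors in edgeR, limma-voom (limma 3.58.1), no filter and leaving out each library. Total counts per library are given with the results.

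The members and lists were chosen with earlier results of these data known. The sets were taken from the sample titles and the earlier results. Named genes are all members and, of the other lists, at most the 3 called genes with the lowest p each way and the most abundant gene; of markers, sums per library and defining genes. Promoters come from RefSeq and coordinates from GENCODE on GRCm38.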

Additional observations from a re-analysis of the deposited data

How the results depend on the processing

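Counts of called genes depended on the design and on single libraries. Over all genes 480 were called higher and 563 lower; without the set term both counts were 0, with the replicate block 220 and 334, and with no filter on low counts 60 and 42. Leaving out 1 library in turn gave 1 to 1072 higher and 0 to 632 lower: 1 and 0 without H2O2 replicate 2, 126 and 212 without control replicate 3, 217 and 427 without control replicate 2, 1072 and 632 without control replicate 1, and 1050 and 560 without H2O2 replicate 1. Without either library of set A the set term takes up the other, so those fits rest on set B alone. Without H2O2 replicate 2 the change rests on set A alone, 1 H2O2 library against 1 control. Of the sterol enzymes 2 were called lower; this was 0 without the set term, 1 with the replicate block, 0 with no filter and 0 to 2 without 1 library, and 0 to 1 were called higher without 1 library. The single fatty acid call was 0 without the set term and with no filter, and 0 to 1 without 1 library; of the regulators 0 to 1 were called higher. The median of the sterol enzymes ran from -0.215 to -0.123 without 1 library and stayed negative under every alternative tried. The fatty acid median was 0.0563 without the set term and between -0.0112 and 0.0736 without 1 library, so it had no stable direction. The cause was not tested.

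Of the single member results under the alternatives, 323 kept their side of the threshold, 14 were no longer called, 4 became called and 0 changed sign as calls. All 14 losses were of Pmvk, Cyp51 and Acss2, the only members called. Most of the 323 describe members that were not called in the first place, so that count does not show that the calls were stable. With no filter Pmvk, Cyp51 and Acss2 had adjusted p of 0.0513, 0.0841 and 0.0513 (edgeR); with the replicate block Pmvk and Acss2 kept their calls (0.0243 and 0.0353) and Cyp51 did not (0.0891). DESeq2 with the set term (396 higher, 529 lower), limma-voom (473 and 529) and DESeq2 size factors (412 and 584) each left 2 sterol enzymes lower and 1 fatty acid gene higher. The 2 same-numbered pairs lie within sets A and B, and their deviations correlated at 0.834 and 0.751; the set term already divides the libraries this way, and the labels state no further pairing.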
